A study of Mus musculus with 8 samples.

Results

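Imprinted genes are expressed from the copy inherited from a single parent, under control regions whose DNA is methylated on the maternal or on the paternal copy. For some genes of a cluster the methylated copy is the active one, and for others it is the silent one. Dnmt3a is the DNA methyltransferase that, with its partner Dnmt3l, sets most of these marks in germ cells, while Dnmt1 and its partner Uhrf1 copy them at each division of body cells. Many clusters hold a long non-coding RNA, such as Kcnq1ot1 or Airn, that silences the protein-coding neighbours on its own chromosome. Outside the brain and the placenta many of these genes are silent or low, and in blood-forming stem cells Cdkn1c is known for holding cells out of division.

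The genes described here are 50 known mouse imprinted genes and neighbours in their clusters, picked by symbol as known imprinted genes and cluster neighbours, with earlier results of these data known. All 50 were found among the 26667 genes of the count table. They fall into 21 clusters or single loci. RNA came from bone-marrow-derived macrophages of C57BL/6 mice, grown from whole marrow with the growth factor M-CSF at 30 ng/ml and taken at day 8 to 10 of culture. There were 4 libraries labelled Dnmt3a KO and 4 labelled WT, and both genotypes shared the strain, the medium and the days of culture. The sources used here do not give how or in which cells the gene was deleted. Nor do they say that each library was a mouse of its own. The p-values therefore measure the spread between these libraries. A bulk count does not tell the maternal from the paternal copy, so every value below is the sum of both.

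Totals ran from 12614006 to 20801015 counts in Dnmt3a KO and from 15505309 to 28502631 in WT. Dnmt3a itself was at 29.1 to 37.6 CPM in Dnmt3a KO and 150 to 170 CPM in WT, where CPM is the gene's count scaled to a common library size. Its log2 fold change was -2.22 ± 0.11 (SE). All 10 macrophage markers were tested, and they summed to 12630 to 16550 CPM in Dnmt3a KO and 11940 to 13410 CPM in WT, with Csf1r at 2063 CPM in Dnmt3a KO and 2109 CPM in WT. In edgeR 0 of the 10 passed, 2 had an unadjusted p under 0.05 (Lyz2 and Fcgr1), and DESeq2 called 1, Lyz2, at 7698 CPM in Dnmt3a KO and 5619 CPM in WT. The share of all genes with an unadjusted p under 0.05 was not taken. Such counts, here and below, therefore have no background to be read against. WT replicate 1 stood apart, with a median correlation of 0.959 with the other libraries, against 0.981 to 0.985 for the rest. Dnmt3a KO libraries carry the numbers 9 to 12 and WT libraries 1 to 4, so library order and genotype cannot be told apart. Fewer cells of a type and less RNA per cell cannot be told apart either.

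Start sites that RefSeq places at imprinted genes (GRCm38.p6, which is mm10) show how differently the members are supplied with CG pairs, the target of DNA methyltransferases. Windows of 300 bases, with 250 before the start and 50 after it, were available for 39 members. The Kcnq1ot1 window is shown because the methylated control region of its cluster includes that start. The Plagl1 window is shown as a CG-rich counterpart at another imprinted gene. Both are written 5′ to 3′ on the gene's strand, with each CG in capitals.
Kcnq1ot1, chr7:143296498-143296797, minus strand: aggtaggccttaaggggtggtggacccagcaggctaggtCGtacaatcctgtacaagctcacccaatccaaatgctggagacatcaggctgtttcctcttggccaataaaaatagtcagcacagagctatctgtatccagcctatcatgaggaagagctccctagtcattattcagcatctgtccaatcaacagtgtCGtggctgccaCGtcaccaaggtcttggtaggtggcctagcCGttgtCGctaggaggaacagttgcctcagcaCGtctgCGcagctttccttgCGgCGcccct
Plagl1, chr10:13090582-13090881, plus strand: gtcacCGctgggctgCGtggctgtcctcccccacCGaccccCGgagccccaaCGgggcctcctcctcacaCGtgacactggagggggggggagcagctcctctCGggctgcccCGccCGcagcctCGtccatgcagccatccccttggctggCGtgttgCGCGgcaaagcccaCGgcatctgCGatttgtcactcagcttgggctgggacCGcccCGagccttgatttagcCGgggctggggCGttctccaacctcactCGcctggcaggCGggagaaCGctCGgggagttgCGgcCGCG
The Kcnq1ot1 window held 9 CG pairs, more than 54.2% of the 32817 RefSeq windows. The Plagl1 window held 26, more than 83.1% of them. Methylation was not measured in these libraries.

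Of the 50 genes, 26 had enough counts to be tested and 24 did not. Cdkn1c rose and Peg13 fell in Dnmt3a KO macrophages, and the other 24 tested genes did not pass (quasi-likelihood test of edgeR, threshold 0.05 on the Benjamini-Hochberg adjusted p over all genes). These 2 of 26 are 7.69% of the tested members, beside 1.61% of all 12507 genes tested. By direction, 1 member was higher and 1 lower, where the shares over all genes were 1.22% higher and 0.392% lower. The libraries of the genotypes did not overlap for 5 members, 19.2% of those tested, against 9.41% of all genes. With Dnmt3a KO above WT these were Cdkn1c, Igf2r, Plagl1 and Gnas, 4 members where the share over all genes was 5.13%, and with Dnmt3a KO below WT it was Peg13, where that share was 4.28%. The median log2 fold change of Dnmt3a KO over WT was 0.07 for the tested members and -0.02 for all genes tested. The members are few, and no test of the list was made.

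**Figure D1:**
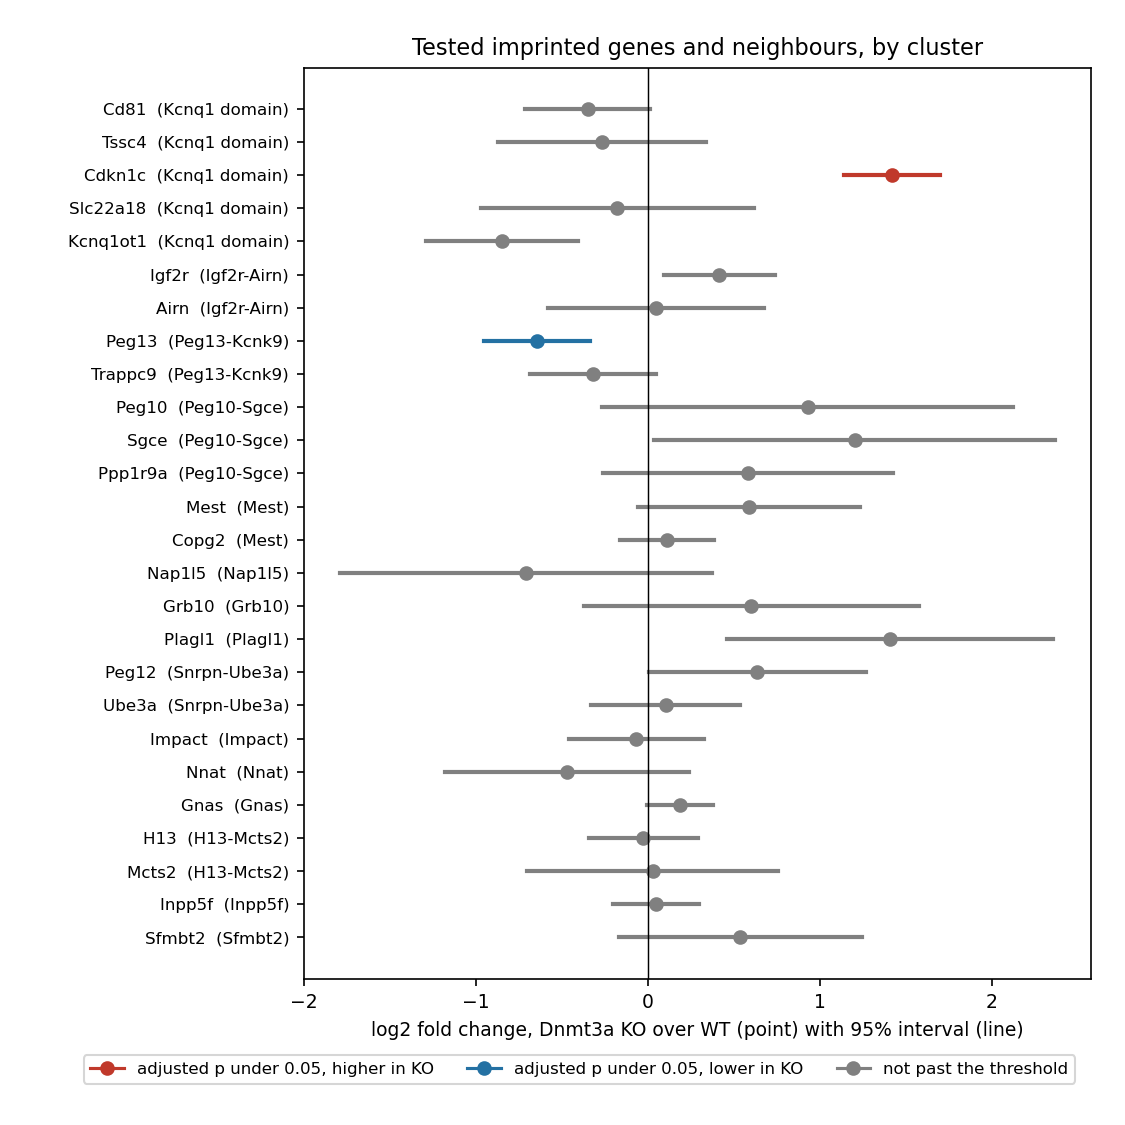
Log2 fold change of Dnmt3a KO over WT for the 26 tested members, ordered by cluster, with 95% intervals from the edgeR fit on 4 libraries of each genotype. Cdkn1c at 1.42 and Peg13 at -0.64 passed the adjusted p threshold of 0.05, and intervals are widest for genes of few counts such as Sgce, Peg10 and Nap1l5.

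Cdkn1c, which encodes the cyclin-dependent kinase inhibitor p57 and is expressed from the maternal copy, was the member with the smallest p. It was at 68.3, 64.2, 77.3 and 62.2 CPM in Dnmt3a KO replicates 1 to 4. In WT replicates 1 to 4 it was at 30.0, 25.1, 21.2 and 25.3 CPM. The lowest Dnmt3a KO library lay above the highest WT library by more than the whole spread within either genotype. The mean was 68.0 ± 6.69 CPM in Dnmt3a KO and 25.4 ± 3.60 CPM in WT (SD, n = 4 each), 2.67-fold higher in Dnmt3a KO. Its log2 fold change of 1.42 ± 0.13 (SE) passed the edgeR test with an adjusted p of 1.93e-04 and rested on 4298 counts in Dnmt3a KO and 1956 in WT. The call held in all 16 alternatives, with log2 fold changes from 1.34 to 1.51. The gene lies on chromosome 7 from 143458339 to 143461050 on the minus strand.

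Kcnq1ot1, the paternally expressed antisense RNA of the same domain, had the opposite sign and did not pass the test. It is described here after its values were seen, for its known part in silencing Cdkn1c on the paternal chromosome in mouse tissues. Its level was 16.7, 17.6, 23.4 and 21.5 CPM in Dnmt3a KO replicates 1 to 4. It was 38.6, 34.7, 46.4 and 23.1 CPM in WT replicates 1 to 4. The genotypes overlapped by a narrow margin, since WT replicate 4 lay just under Dnmt3a KO replicate 3, while the other 3 WT libraries lay above every Dnmt3a KO library. The means were 19.8 ± 3.18 CPM in Dnmt3a KO and 35.7 ± 9.73 CPM in WT (SD, n = 4 each), with a log2 fold change of -0.85 ± 0.20 (SE) and an edgeR adjusted p of 0.0660. Without WT replicate 4 that p was 0.0156, without WT replicate 1 it was 0.0324, with DESeq2 0.00416 and with no filter on low counts 0.00576, while over all alternatives it ran from 0.00416 to 0.204. The transcript spans 93092 bases of chromosome 7, from 143203458 to 143296549, as a single unspliced unit inside Kcnq1 on the opposite strand. The library kit does not mark strand, but Kcnq1 itself had 6 counts over the Dnmt3a KO libraries and 11 over the WT libraries.

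Set against each other within a library, the counts of these genes need no scaling between libraries. Cdkn1c had 4.09, 3.64, 3.30 and 2.89 counts per Kcnq1ot1 count in Dnmt3a KO replicates 1 to 4. In WT replicates 1 to 4 the ratio was 0.778, 0.723, 0.457 and 1.10. The lowest ratio in Dnmt3a KO was thus above the highest in WT. As both genes were picked for their values, this ratio is a description and was not tested.

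**Figure D2:**
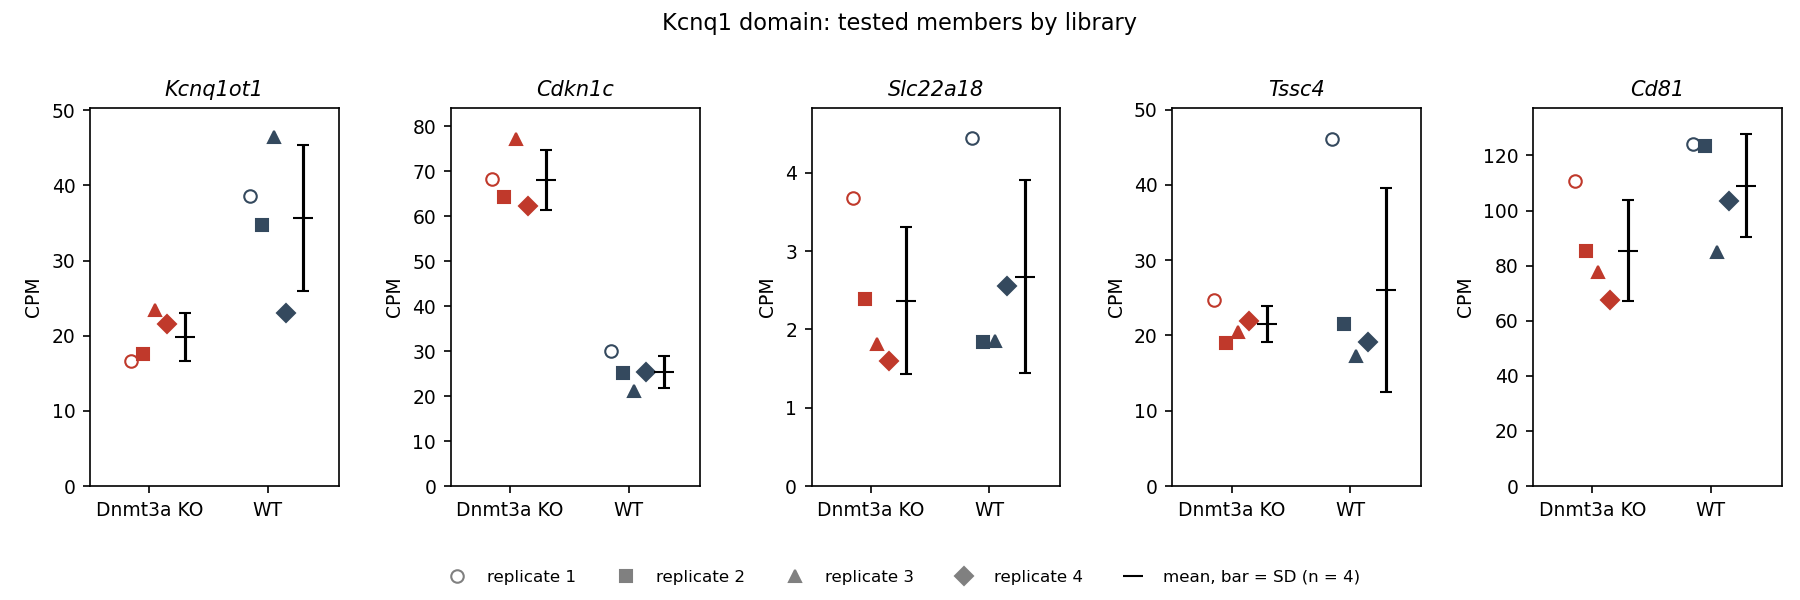
CPM of the 5 tested genes of the Kcnq1 domain in each Dnmt3a KO and WT library, with the mean and SD (n = 4) at the right of each group. Cdkn1c is at 62.2 CPM or more in every Dnmt3a KO library and at 30.0 CPM or less in every WT library, Kcnq1ot1 overlaps only through WT replicate 4, and the other 3 genes overlap, with WT replicate 1 highest in each.

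The other tested genes of the Kcnq1 domain did not pass the test. Cd81, which encodes a tetraspanin of the cell surface, was at 111, 85.5, 77.8 and 67.6 CPM in Dnmt3a KO replicates 1 to 4, against 124, 123, 84.9 and 103 CPM in WT replicates 1 to 4. The values overlap, and its log2 fold change of -0.35 ± 0.16 (SE) had an edgeR adjusted p of 0.411. Slc22a18, a transporter gene that is maternally expressed and begins 12.69 kb from the start of Cdkn1c, averaged 2.37 ± 0.94 CPM in Dnmt3a KO and 2.67 ± 1.23 CPM in WT (SD, n = 4 each), and its log2 fold change had 95% limits of -0.97 and 0.61. Tssc4 averaged 21.5 ± 2.40 CPM in Dnmt3a KO and 26.0 ± 13.5 CPM in WT (SD, n = 4 each), where WT replicate 1 alone reached 46.1 CPM. Phlda2, a maternally expressed gene that limits placental growth, had 7 counts in Dnmt3a KO and 2 in WT. Ascl2, a transcription factor gene needed for the placenta, had 6 counts in Dnmt3a KO and 14 in WT, so neither could be tested.

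Within 1000 kb of the start of Cdkn1c, 18 genes were tested and Cdkn1c alone passed. Of the 13 tested genes there that are not members, 0 passed in edgeR, DESeq2 or limma-voom, and 3 had an unadjusted edgeR p under 0.05. In all, 6 had a positive and 7 a negative log2 fold change, and their median was -0.02. The nearest tested gene beyond Slc22a18, the histone chaperone gene Nap1l4, was at 190 CPM in Dnmt3a KO and 200 CPM in WT. In 3 of the 13 the genotypes did not overlap, where the share over all genes tested was 9.41%. Mrgpre was higher (log2 fold change 0.79, edgeR adjusted p 0.210), and Tspan32 and Gm14492 were lower (-0.58 and -0.66, edgeR adjusted p 0.194 and 0.229). These 3 are named because the count is small, after their values were seen.

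**Figure D3:**
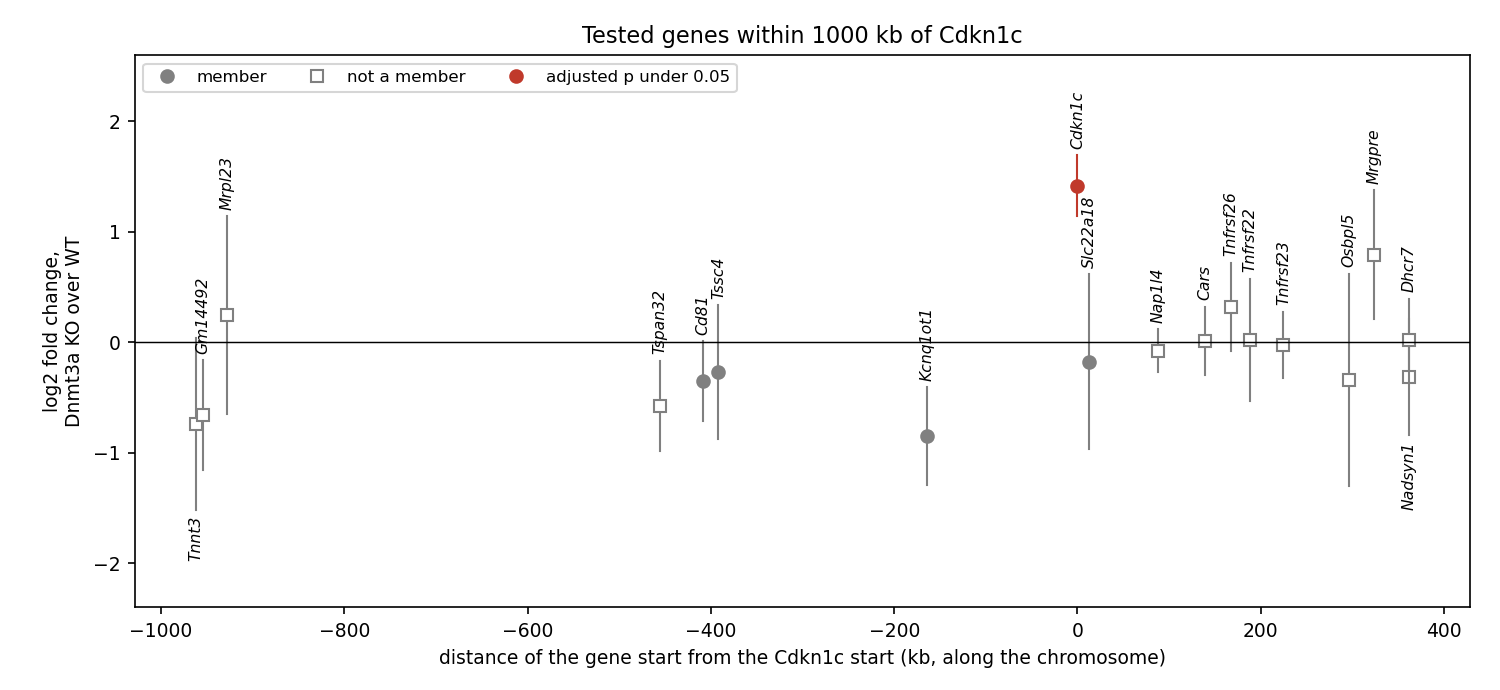
Log2 fold change of Dnmt3a KO over WT with its 95% interval for the 18 tested genes whose start lies within 1000 kb of the Cdkn1c start, against distance in kb along the chromosome. Cdkn1c stands at 1.42, Kcnq1ot1 at -0.85 and 164.5 kb away, and the genes that are not members lie between -0.74 and 0.79.

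Among markers of other cell types, edgeR called genes only in the neutrophil list and in the erythroid and megakaryocyte list. Among neutrophil genes 5 of 11 tested were called higher, namely S100a8, S100a9, Mmp8, Ngp and Elane, and 0 lower. Over all genes tested the shares were 1.22% higher and 0.392% lower. The neutrophil list summed to 729 to 891 CPM in Dnmt3a KO and 290 to 434 CPM in WT, with Ly6g below the filter at 8 and 9 counts. In the erythroid and megakaryocyte list 2 of 3 tested genes, Itga2b and Gp1bb, rose. The other, Pf4, did not pass, at 130 CPM in Dnmt3a KO and 138 CPM in WT (log2 fold change -0.08). The sum of the list, most of which was Pf4, was 139 to 204 CPM in Dnmt3a KO and 124 to 162 CPM in WT. Hba-a1 and Beta-s were at 0 counts in every library. In edgeR 0 of 8 tested stem and progenitor markers, 0 of 2 stromal, 0 of 4 endothelial and 0 of 2 mast cell markers passed, while 1, 1, 1 and 0 of them had an unadjusted p under 0.05 and DESeq2 called 1, 0, 0 and 0, the 1 being Gata2 at 4.32 CPM in Dnmt3a KO and 8.73 CPM in WT. The stem and progenitor sum was 125 to 179 CPM in Dnmt3a KO and 117 to 175 CPM in WT, with no marker at 0. The stromal sum was 9.44 to 15.9 CPM in Dnmt3a KO and 3.56 to 10.7 CPM in WT, with 10 of 12 markers below the filter. The endothelial sum was 24.7 to 34.7 CPM in Dnmt3a KO and 17.4 to 26.4 CPM in WT, and the mast cell sum 1.58 to 6.31 CPM in Dnmt3a KO and 0.318 to 1.97 CPM in WT. The part of these cells in the level of Cdkn1c was not tested.

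Peg13, a paternally expressed non-coding RNA that lies in an intron of Trappc9, was the member that fell. Its level was 11.4, 9.44, 8.28 and 9.68 CPM in Dnmt3a KO replicates 1 to 4. In WT replicates 1 to 4 it was 13.9, 15.9, 16.7 and 14.1 CPM. Every Dnmt3a KO library was below every WT library. The means of 9.69 ± 1.27 CPM in Dnmt3a KO and 15.2 ± 1.35 CPM in WT (SD, n = 4 each) gave a log2 fold change of -0.64 ± 0.14 (SE) and an edgeR adjusted p of 0.0478. That call is near the threshold: it was lost with limma-voom at 0.0506 and on leaving out WT replicate 2, 3 or 4 or any single Dnmt3a KO library, where the edgeR adjusted p reached 0.1499. Peg13 occupies chromosome 15 from 72805600 to 72810324 on the minus strand.

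Its host gene Trappc9, which encodes a subunit of a vesicle tethering complex, was at 34.7, 24.2, 28.2 and 28.8 CPM in Dnmt3a KO replicates 1 to 4, against 47.9, 35.4, 30.3 and 31.3 CPM in WT replicates 1 to 4. The genotypes overlap, and the log2 fold change of -0.32 ± 0.17 (SE) did not pass (edgeR adjusted p 0.470). Peg13 and Trappc9 lie on the same strand and share 0 exon bases, so unspliced Trappc9 RNA would be counted to Peg13. Peg13 had 32.7, 39.0, 29.3 and 33.7 counts for every 100 of Trappc9 in Dnmt3a KO replicates 1 to 4, and 29.1, 44.9, 55.1 and 45.2 in WT replicates 1 to 4. These ratios overlap through WT replicate 1 alone. Kcnk9, a potassium channel gene expressed from the maternal copy in mouse brain, had 2 counts in each genotype.

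Igf2r, Gnas and Plagl1 were higher in every Dnmt3a KO library than in any WT library without passing the test. Igf2r, the maternally expressed receptor that sorts lysosomal enzymes and clears IGF2, was at 424, 526, 375 and 369 CPM in Dnmt3a KO replicates 1 to 4, against 245, 353, 331 and 341 CPM in WT replicates 1 to 4. WT replicate 1 was low and Dnmt3a KO replicate 2 high, and the log2 fold change was 0.42 ± 0.15 (SE; edgeR adjusted p 0.237). Airn, the paternal RNA that crosses the Igf2r promoter and silences that copy, averaged 3.75 ± 0.37 CPM in Dnmt3a KO and 3.65 ± 1.53 CPM in WT (SD, n = 4 each), and its log2 fold change had 95% limits of -0.58 and 0.67. Airn overlaps Igf2r on the opposite strand, so reads there are uncertain. The cation transporter genes Slc22a2 and Slc22a3, silenced by Airn in mouse placenta, had 5 counts each in Dnmt3a KO, against 0 and 9 counts in WT.

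Gnas, which encodes the stimulatory G protein alpha subunit together with imprinted upstream isoforms, was the member with the most counts. It was at 848, 853, 929 and 882 CPM in Dnmt3a KO replicates 1 to 4, against 837, 762, 746 and 739 CPM in WT replicates 1 to 4. The gap between the genotypes was small beside their spread, and the log2 fold change was 0.19 ± 0.09 (SE), at an edgeR adjusted p of 0.411. A gene-level count adds the isoforms of Gnas together. Plagl1, a paternally expressed zinc finger transcription factor gene, was at 3.83, 2.97, 1.26 and 1.25 CPM in Dnmt3a KO replicates 1 to 4, against 1.02, 0.636, 0.596 and 1.18 CPM in WT replicates 1 to 4. Dnmt3a KO replicates 1 and 2 were well above the other 6 libraries, and Dnmt3a KO replicates 3 and 4 only just above WT replicate 4. Its log2 fold change was 1.41 ± 0.43 (SE) on 150 counts in Dnmt3a KO and 70 in WT, with an edgeR adjusted p of 0.164, against 0.0468 with DESeq2.

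**Figure D4:**
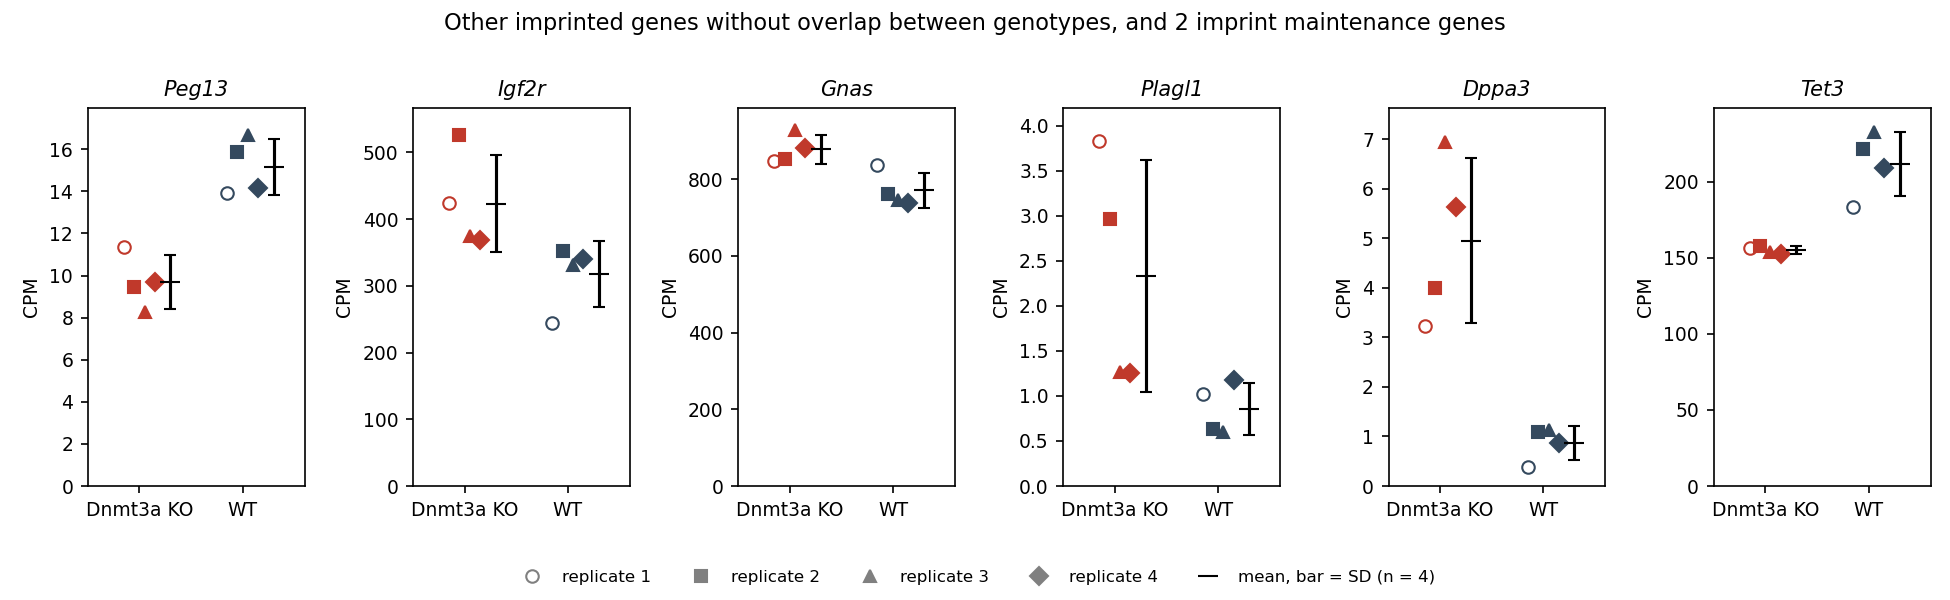
CPM in each Dnmt3a KO and WT library, with the mean and SD (n = 4), for the 4 members other than Cdkn1c whose genotypes do not overlap, and for Dppa3 and Tet3 of the imprint maintenance genes. Peg13 and Tet3 are lower and Igf2r, Gnas, Plagl1 and Dppa3 higher in all 4 Dnmt3a KO libraries, and of these Peg13, Dppa3 and Tet3 passed the test.

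The Peg10-Sgce cluster on chromosome 6 was low in both genotypes. Sgce, the paternally expressed epsilon-sarcoglycan gene, was at 0.602, 1.12, 0.709 and 0.968 CPM in Dnmt3a KO replicates 1 to 4, against 0.890, 0.254, 0.119 and 0.277 CPM in WT replicates 1 to 4. WT replicate 1 lay among the Dnmt3a KO libraries, and the log2 fold change of 1.20 ± 0.53 (SE) had an edgeR adjusted p of 0.380, or 0.0421 without WT replicate 1. Ppp1r9a, the gene of the actin-binding protein neurabin, was at 2.03, 3.41, 1.50 and 1.59 CPM in Dnmt3a KO replicates 1 to 4, against 1.40, 1.97, 1.79 and 0.726 CPM in WT replicates 1 to 4, with overlap, at 0.58 ± 0.38 (SE) on the log2 scale and an edgeR adjusted p of 0.581. Peg10, a gene derived from a retrotransposon, ranged from 1.02 to 2.41 CPM in Dnmt3a KO and from 0.127 to 1.69 CPM in WT. Its log2 fold change of 0.93 had a 95% interval from -0.27 to 2.12. Asb4, a ubiquitin ligase adaptor gene, had 21 counts in Dnmt3a KO and 31 in WT and was not tested.

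Among abundant members outside these clusters the genotypes were close. Copg2, a coatomer subunit gene, was at 56.8, 69.8, 62.9 and 57.5 CPM in Dnmt3a KO replicates 1 to 4, against 45.5, 59.2, 60.1 and 63.8 CPM in WT replicates 1 to 4. Its log2 fold change was 0.11 ± 0.12 (SE; edgeR adjusted p 0.759), with 95% limits of -0.16 and 0.38. Ube3a, the ubiquitin ligase gene that is imprinted in neurons, was at 81.7, 111, 101 and 93.4 CPM in Dnmt3a KO replicates 1 to 4, against 53.3, 92.5, 113 and 102 CPM in WT replicates 1 to 4. Its log2 fold change was 0.10 ± 0.20 (SE; edgeR adjusted p 0.869), with limits of -0.33 and 0.53. Both overlap, and in both WT replicate 1 was the lowest library.

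H13, which encodes signal peptide peptidase, was at 183, 181, 203 and 209 CPM in Dnmt3a KO replicates 1 to 4, against 266, 167, 176 and 183 CPM in WT replicates 1 to 4. The only library apart was WT replicate 1, and the log2 fold change was -0.03 ± 0.14 (SE; edgeR adjusted p 0.956), with limits of -0.34 and 0.29. Inpp5f, a phosphoinositide phosphatase gene, was at 46.9, 49.9, 53.8 and 48.2 CPM in Dnmt3a KO replicates 1 to 4, against 40.1, 48.4, 55.1 and 49.0 CPM in WT replicates 1 to 4. The genotypes overlap, and the log2 fold change was 0.04 ± 0.11 (SE; edgeR adjusted p 0.901), with limits of -0.21 and 0.30. Impact, an inhibitor of the stress kinase GCN2 expressed from the paternal copy, was at 52.0, 60.4, 37.0 and 37.9 CPM in Dnmt3a KO replicates 1 to 4, against 38.4, 57.9, 53.4 and 46.8 CPM in WT replicates 1 to 4. Its libraries overlap too, at -0.07 ± 0.18 (SE; edgeR adjusted p 0.906) and limits of -0.46 and 0.33. For H13, Inpp5f and Impact a change of 1 log2 unit either way lies outside the 95% interval. Over all tested members the whole interval lay within 1 log2 unit of no change for 14 of 26.

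The remaining tested loci had few counts and wide intervals. Grb10, an adaptor gene that restrains insulin receptor signalling, was at 1.35, 1.61, 1.50 and 1.59 CPM in Dnmt3a KO replicates 1 to 4, against 0.191, 1.27, 0.894 and 1.52 CPM in WT replicates 1 to 4. Nnat, a paternally expressed proteolipid gene, was at 3.61, 2.24, 3.15 and 2.56 CPM in Dnmt3a KO replicates 1 to 4, against 2.73, 5.15, 5.84 and 2.32 CPM in WT replicates 1 to 4. Both overlap, with log2 fold changes of 0.60 ± 0.44 (SE) for Grb10 and -0.47 ± 0.32 (SE) for Nnat and edgeR adjusted p of 0.634 and 0.603. Sfmbt2, a Polycomb-group gene imprinted in mouse placenta, was at 1.43, 2.63, 2.05 and 3.36 CPM in Dnmt3a KO replicates 1 to 4, against 1.08, 1.59, 1.73 and 2.11 CPM in WT replicates 1 to 4. It overlapped as well, and its log2 fold change was 0.54 ± 0.32 (SE; edgeR adjusted p 0.543).

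Nap1l5, a paternally expressed histone chaperone-like gene, was at 0.902, 0.292, 0.315 and 0.512 CPM in Dnmt3a KO replicates 1 to 4, against 0.318, 0.763, 1.19 and 0.934 CPM in WT replicates 1 to 4. These overlap, and the log2 fold change was -0.71 ± 0.49 (SE; edgeR adjusted p 0.609). Mest, a paternally expressed gene whose product resembles a hydrolase, averaged 2.64 ± 0.75 CPM in Dnmt3a KO and 1.76 ± 0.46 CPM in WT (SD, n = 4 each). Mest shares 912 exon bases with Copg2 on the opposite strand, so its reads are uncertain. Peg12 averaged 2.68 ± 0.83 CPM in Dnmt3a KO and 1.72 ± 0.26 CPM in WT, and Mcts2, a retrogene copy inside H13, averaged 1.56 ± 0.48 CPM in Dnmt3a KO and 1.54 ± 0.46 CPM in WT (SD, n = 4 each). Mcts2 derives from Mcts1, and reads shared by these copies make its value uncertain. None of these remaining genes passed, at edgeR adjusted p of 0.394 to 0.979.

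Several clusters had few or no counts in either genotype. In the H19-Igf2 locus, the growth factor gene Igf2 had 1 count in each genotype and the non-coding RNA gene H19 had 2 counts in Dnmt3a KO and 0 in WT. Peg3, Usp29 and Zim1 each had 1 count in Dnmt3a KO, all in replicate 2, and 0 in WT. In the Dlk1-Meg3 locus Meg3 had 23 counts in Dnmt3a KO and 26 in WT, in all 8 libraries, while Rian, Mirg, Dlk1 and Rtl1 had 2, 2, 8 and 0 counts in Dnmt3a KO and 5, 0, 4 and 3 in WT. In the Snrpn-Ube3a locus Snrpn, Ndn and Magel2 had 1, 3 and 1 counts in Dnmt3a KO and 0 in WT, and Mkrn3, a ring finger gene, had 25 in Dnmt3a KO and 29 in WT.

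Single loci were as sparse. Rasgrf1, a Ras exchange factor gene, had 34 counts in Dnmt3a KO and 15 in WT, and Dcn, the stromal proteoglycan gene decorin, had 12 in Dnmt3a KO and 7 in WT. Zdbf2 had 6 in Dnmt3a KO and 2 in WT. No member below the filter exceeded 54 counts over the 8 libraries, and 10 of the 24 had at most 3. In 9 of them WT had 0 counts in every library, and in 1, Rtl1, Dnmt3a KO did. Among the 9, H19, Peg3, Usp29, Zim1, Mirg and Snrpn had at most 2 counts, all in Dnmt3a KO replicate 2. That library was the deepest of its genotype, at 20801015 counts. WT replicate 4 was deeper, at 28502631 counts, and had 0 counts of each of these genes. The part of depth was not tested. The matching shares over all genes below the filter were not taken, so these numbers are not read as a difference between genotypes. With no filter on low counts none of these 24 passed (edgeR adjusted p of 0.446 to 0.994); Slc22a2 alone had an unadjusted p below 0.05, at 0.0429.

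**Figure D5:**
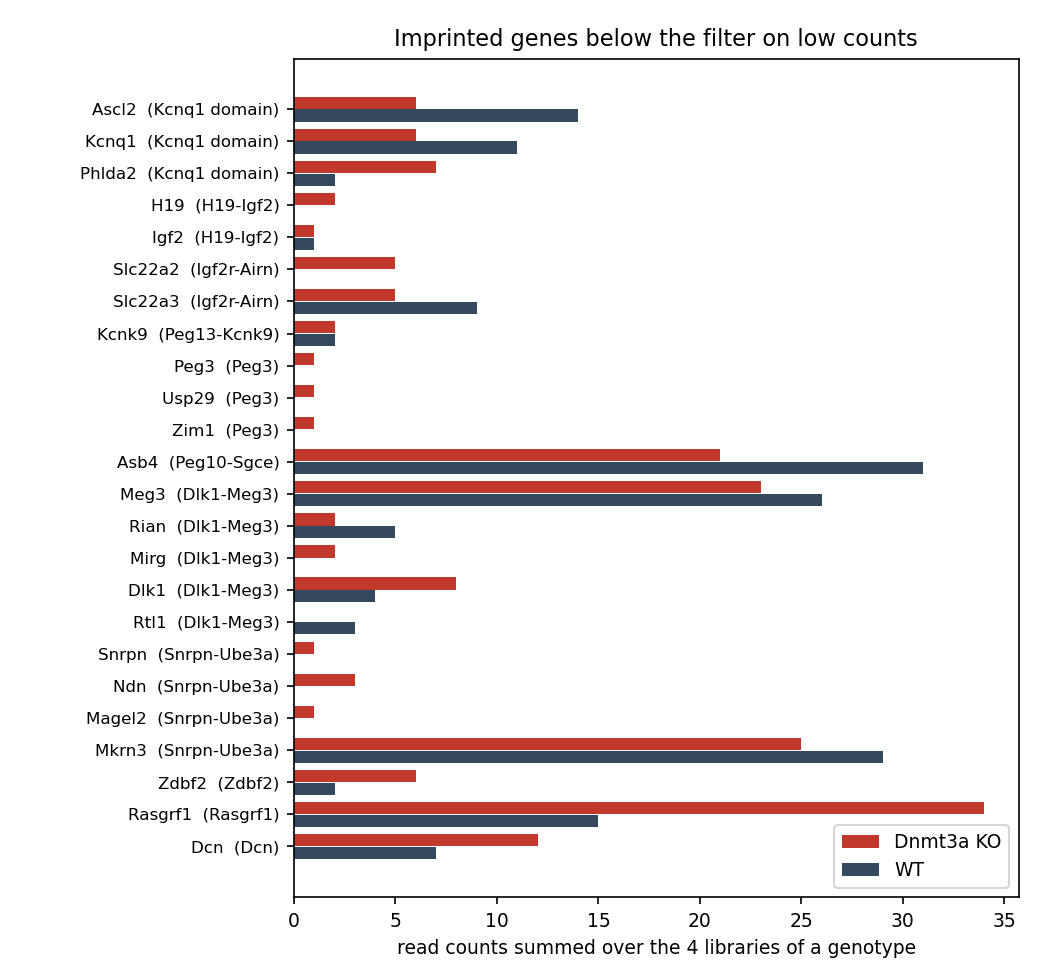
Read counts summed over the 4 Dnmt3a KO libraries and over the 4 WT libraries for the 24 members below the filter on low counts, not scaled for depth. The highest sum is 34 counts (Rasgrf1 in Dnmt3a KO), and H19, Igf2, Peg3, Usp29, Zim1, Mirg, Snrpn, Ndn and Magel2 have at most 3 in either genotype.

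Of 29 genes that set, protect or remove methylation at imprinted regions, 23 were tested, 1 rose and 1 fell. Over all genes tested 1.61% were called in either direction. In 7 of the 23 the unadjusted edgeR p was under 0.05, and the median log2 fold change of the 23 was -0.13. The share of all genes under that unadjusted threshold was not taken, so the 7 are not read as a result about the list. Dppa3, which encodes a protein that shields the maternal genome from loss of methylation in the early mouse embryo and binds Uhrf1, was at 3.23, 3.99, 6.94 and 5.64 CPM in Dnmt3a KO replicates 1 to 4, against 0.381, 1.08, 1.13 and 0.864 CPM in WT replicates 1 to 4. Every Dnmt3a KO library was above every WT library. The log2 fold change was 2.50 ± 0.35 (SE; edgeR adjusted p 0.00466), on 312 counts in Dnmt3a KO and 67 in WT, and the call held in all 16 alternatives. Tet3, an enzyme gene whose product oxidises methylcytosine, was at 157, 158, 154 and 152 CPM in Dnmt3a KO replicates 1 to 4, against 184, 222, 233 and 209 CPM in WT replicates 1 to 4. The Dnmt3a KO libraries were tightly grouped below all WT libraries, and the log2 fold change was -0.45 ± 0.10 (SE), at an edgeR adjusted p of 0.0442. That call was lost without scaling factors and when any library except WT replicate 1 was left out, with 0.1504 as the highest edgeR adjusted p.

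Kdm1b, a histone demethylase gene needed for maternal imprints in mouse oocytes, averaged 21.8 ± 1.83 CPM in Dnmt3a KO and 27.7 ± 3.78 CPM in WT (SD, n = 4 each; edgeR adjusted p 0.284). The maintenance genes Dnmt1 and Uhrf1, named for their role, averaged 130 and 46.9 CPM in Dnmt3a KO and 153 and 58.4 CPM in WT, with edgeR adjusted p of 0.322 and 0.352. Zfp57, whose product binds the methylated copy of imprinted control regions, had 1 count in Dnmt3a KO and 4 in WT. Its relative Zfp445 averaged 105 CPM in Dnmt3a KO and 107 CPM in WT.

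Of 59 further imprinted genes and neighbours outside the 50, 39 were tested, 1 rose and 0 fell, with a median log2 fold change of 0.03. Over all genes tested 1.61% were called in either direction, and a count of 1 is too small to be set against that share. Of the 39, 4 had an unadjusted edgeR p under 0.05, a count with no share over all genes beside it. The riser was Ampd3, an AMP deaminase gene imprinted in mouse placenta, at 108, 89.2, 96.5 and 88.0 CPM in Dnmt3a KO replicates 1 to 4, against 53.6, 76.1, 64.0 and 66.4 CPM in WT replicates 1 to 4. All Dnmt3a KO libraries were above all WT libraries, and the log2 fold change was 0.55 ± 0.12 (SE; edgeR adjusted p 0.0478). Without scaling factors or any single library but WT replicate 1 the call was lost, and the edgeR adjusted p reached 0.142. Qpct, a glutaminyl cyclase gene, averaged 35.1 ± 12.3 CPM in Dnmt3a KO and 61.9 ± 7.01 CPM in WT (SD, n = 4 each), with an edgeR adjusted p of 0.106.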

How the data were processed

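Counts of reads per gene symbol were used as the authors deposited them, 1 column per library. Trimmomatic 0.39, STAR 2.7.0a, featureCounts and build mm10 are named in the submitters' processing notes; the sources used here give neither settings nor annotation. Libraries were made from 10 ng of RNA with poly(A) selection, per the labels' protocols.

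From these counts, genes were kept with filterByExpr (minimum count 10) in edgeR 4.0.16 (R 4.3.3), scaled by TMM and tested with the quasi-likelihood test on genotype over 12507 genes. The SE is the size of the log2 fold change over the square root of F. Positions, exons and overlaps came from GENCODE M21 (GRCm38), and 50 of 50 members matched. Tests were tried on simulated counts. Other settings tried were DESeq2 1.42.0, voom in limma 3.58.1, scaling by RLE, by upper quartile or by totals alone, no filter, a filter of 1 CPM in 4 libraries, a replicate block, an adjusted p under 0.1 and each library left out.

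Members and lists were chosen with earlier results of these data known. Full values are given for members that were called, did not overlap, changed by at least 1 log2 unit or had the most counts of their cluster. From the further imprinted and the maintenance genes, those called and the 3 with the smallest p are named; marker lists are given by counts and sums. Windows around Cdkn1c and Peg13 were added after the calls were seen. The authors' own comparison table was not used here.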

Additional observations from a re-analysis of the deposited data

Results flagged for a closer look

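In 74 groups of 4 libraries of a single gene, 3 held a library far from the other 3 of its genotype by Dixon's criterion, and all 3 were WT replicate 1. Chance flags about 1 group in 20. Tssc4 was at 46.1 CPM in WT replicate 1, with the other WT libraries at 17.2 to 21.5 CPM. H13 was at 265.5 CPM in WT replicate 1, with the others at 167 to 183 CPM. Mcts2, which lies inside H13, was at 2.225 CPM in WT replicate 1, with the others at 1.24 to 1.398 CPM. Without WT replicate 1 the log2 fold changes of Dnmt3a KO over WT were 0.16 for Tssc4 and 0.15 for H13, against -0.27 and -0.03 with it, and none of these values passed the test.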

How the results depend on the processing

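The log2 fold changes of Dnmt3a, Cdkn1c and Dppa3 kept their sign and their call in all 16 alternatives. Of the 26 tested members, 18 kept their sign throughout, with Sgce and Nap1l5 not tested under the stricter filter. The other 8 were uncalled and changed sign only when a library was left out, with log2 fold changes from -0.42 to 0.16 for Tssc4, -0.46 to 0.16 for Slc22a18, -0.11 to 0.32 for Airn, -0.076 to 0.23 for Ube3a, -0.22 to 0.029 for Impact, -0.10 to 0.15 for H13, -0.11 to 0.25 for Mcts2 and -0.028 to 0.12 for Inpp5f. The 2 called members became 4 with DESeq2 (Kcnq1ot1 and Plagl1 added), 1 with limma-voom, and 1 to 4 when a library was left out. Over all genes the 201 calls became 399 with no filter, 551 with DESeq2, 355 at an adjusted p under 0.1, and 105 (without WT replicate 2) to 480 (without WT replicate 1) when a library was left out. The 1 called further imprinted gene became 0 without scaling factors, 2 with no filter or DESeq2, and 0 to 2 when a library was left out. The 2 called maintenance genes became 1 without scaling factors and 1 to 2 when a library was left out. The cause of these changes was not tested. No alternative moved the median log2 fold change of all genes by more than 0.1.

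Whether the replicate numbers pair the libraries is not settled here. Deviations of same-numbered libraries correlated at 0.253, 0.284, 0.066 and -0.019. Dnmt3a KO replicates 1, 2 and 3 each correlated best with the WT library of the same number. For Dnmt3a KO replicate 2 WT replicate 4 came close, at 0.269, and Dnmt3a KO replicate 4 correlated best with WT replicate 1, at 0.099. With the replicate block 260 genes were called, 178 of them shared with the fit without it, and the counts were 1 member, 0 further imprinted genes and 1 maintenance gene. Peg13, Ampd3 and Tet3 were not called with the block, at edgeR adjusted p of 0.0741, 0.0718 and 0.0568. Precision is limited by 4 libraries a genotype and, for 24 members, by depth.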

Other observations

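Per kilobase of exon, the level of Cdkn1c was the third among the 26 tested members in Dnmt3a KO and the sixth in WT, at 33.3 CPM per kb in Dnmt3a KO and 12.5 CPM per kb in WT. Gnas led in both genotypes, at 78.5 CPM per kb in Dnmt3a KO and 68.9 CPM per kb in WT. Kcnq1ot1, at 93092 bases, was at 0.213 CPM per kb in Dnmt3a KO and 0.383 CPM per kb in WT. These levels use the union of GENCODE exons, while the exons that the authors counted are not known here.

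Members were also classed by the parental copy known to be expressed where the gene is imprinted, which can be another tissue, as for Ube3a. Which copy these macrophages expressed was not measured. Both signs occurred in each class of tested members. Of 9 members classed as maternal, 5 had a positive and 4 a negative log2 fold change, with a median of 0.10. Of 13 classed as paternal, 8 were positive and 5 negative, with a median of 0.05. Over all genes tested 46.9% were positive and the median was -0.02.

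Within 1000 kb of Peg13, 9 genes were tested and Peg13 alone passed. The 7 that are not members had log2 fold changes from -0.19 to 0.62, and 1 of them, Dennd3, had an unadjusted edgeR p under 0.05. Dennd3 stood at 0.62, with 5.17 CPM in Dnmt3a KO and 3.32 CPM in WT, overlap between genotypes and an edgeR adjusted p of 0.323. Chrac1, a chromatin remodelling subunit gene, was at 41.3 CPM in Dnmt3a KO and 38.2 CPM in WT.

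The letters TGCCGC, which the imprint-protecting factor ZFP57 recognises when methylated, were searched on both strands of the start windows. They were in 14 of 56 windows of members (25%), several of which belong to the same gene or overlap, and in 11.6% of all windows. The letters hold a CG, and windows of members had a median of 15 CG pairs, against 7 over all windows. The part of CG content in these shares was not tested. The Kcnq1ot1 window held none and the Plagl1 window held 1. A match is a description of the letters and not of binding.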
